A study of Mus musculus with 6 samples.

Results

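The genes described here are the Hox genes, chosen as every gene of the count table whose symbol is Hox, a cluster letter from a to d and a number. There were 39 of them among 40879 genes: 11 in the Hoxa cluster, 10 in Hoxb, 9 in Hoxc and 9 in Hoxd. They were measured by poly-A RNA sequencing of CD8 T cells that flow cytometry sorted from MC38-hPD-L1 tumours, grown for 12 days in C57BL/6N mice. MC38 is a mouse colon carcinoma line, and hPD-L1 is part of the line's name in the labels. Proximity labelling with a photocatalyst had attached biotin to some of the cells. The Biotin+ group (3 libraries) holds the labelled T cells, described as neighbouring the tumour, and the Biotin- group (3 libraries) the T cells without label, described as distal to it. All 6 libraries came from tumours of the same line, age and host strain, and none from outside a tumour. The labels give neither the sex and age of the mice nor whether a replicate is a mouse or a pool of mice, so p-values speak of the spread between these samples alone.

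Hox genes encode homeodomain transcription factors that give cells of the embryo their position along the body axis. They lie in 4 clusters, on chromosomes 6 (Hoxa), 11 (Hoxb), 15 (Hoxc) and 2 (Hoxd), and the paralogue number, from 1 to 13, follows a gene's place in its cluster. Low numbers are used from the hindbrain downwards, high numbers in the lumbar, sacral and tail regions, the limbs and the hindgut. Adult connective tissue cells keep much of this pattern as a record of where in the body they arose. Blood-forming cells also use Hox genes, mainly of the a and b clusters, and reduce them as they mature.

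Hox transcripts were rare in every library, and rarer in the Biotin+ group. The 39 genes together took 326, 189 and 535 counts in the Biotin+ libraries (replicates 1, 2 and 3), against 1334, 1111 and 2352 counts in the Biotin- libraries. Library totals ran from 16440614 to 19640693 counts in Biotin+ and from 16423106 to 19035864 in Biotin-. As TMM-scaled counts-per-million values (CPM), the sums were 17.6, 11.8 and 32.4 in Biotin+ and 64.9, 60.9 and 127 in Biotin-. The groups did not overlap, and the means ± SD of 3 libraries each were 20.6 ± 10.6 CPM in Biotin+ and 84.3 ± 37.1 CPM in Biotin-, 4.09-fold lower in Biotin+. In both groups replicate 3 had the highest sum. Between 23 and 26 Hox genes had a count in a Biotin+ library, and 32 or 33 in a Biotin- library.

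These libraries also differed in markers of other cells. A list of 11 fibroblast markers (Col1a1, Dcn and Pdgfra among them) took 0.02% to 0.0398% of counts in Biotin+ and 0.126% to 0.263% in Biotin-. Of its 11 genes, 10 passed the filter on low counts and were tested. At an edgeR adjusted p below 0.05, 8 were lower in Biotin+ and 0 higher. Over all tested genes, 6.72% were lower and 1.53% higher. Thy1, which stood on that list too, is left out of this sum because T cells use it, and it was higher in Biotin+. Per 1000 counts of the 11 fibroblast markers, the Hox genes had 43.3, 48.2 and 88.7 counts in Biotin+ and 26.7, 49.4 and 94.6 in Biotin-, and the groups overlapped. Smooth muscle and pericyte markers took 0.00152% to 0.00302% of counts in Biotin+ and 0.00584% to 0.0108% in Biotin- (3 of 8 genes tested, 1 lower). Endothelial markers took 0.0009% to 0.00202% and 0.00255% to 0.00327% in the same order (3 of 8 genes tested, 0 called). Haematopoietic progenitor markers took 0.00366% to 0.00538% in Biotin+ and 0.0176% to 0.0235% in Biotin-, with 3 of 6 genes lower (Cd34, Gata2 and Mecom). Kit, on the same list, had overlapping groups (log2 fold change 0.13 ± 0.37 SE), and without Cd34 the list took 0.00153% to 0.00221% in Biotin+ and 0.00235% to 0.00311% in Biotin-. Nerve and Schwann cell markers took 0.000234% to 0.000803% in Biotin+ and 0.00117% to 0.00267% in Biotin- (2 of 5 genes tested, 1 lower, Sox10 at 0). The macrophage, dendritic cell, neutrophil, B cell and NK cell lists had overlapping shares, with 0 genes called. In that order, 10 of 10, 7 of 8, 3 of 6, 2 of 6 and 3 of 5 of their genes were tested. Of 10 epithelial and tumour markers 3 were tested and 0 called, and the others were too low to test. This list took 0.00226% to 0.0135% of counts in Biotin+, highest in replicate 1, and 0.00188% to 0.0063% in Biotin-, with overlap. Krt20, Cdx1 and Cdx2 had no count in any library. The CD8 T cell list took 0.863% to 0.926% of counts in Biotin+ and 0.513% to 0.678% in Biotin- (15 genes tested, 5 higher and 0 lower). Cd8a, the sorted coreceptor chain, ranged from 1160 to 1290 CPM and from 502 to 865 CPM in the same order. By mean share of counts, the fibroblast list was 5.6-fold lower in Biotin+. The haematopoietic progenitor list was 4.53-fold lower (1.5-fold without Cd34), nerve and Schwann cell 4.18-fold, smooth muscle and pericyte 3.78-fold and endothelial 2.13-fold. Only the fibroblast list was set against the summed Hox counts. The part of these markers in the Hox result was not tested. In bulk samples, fewer cells of a type and less RNA per cell cannot be told apart.

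**Figure D1:**
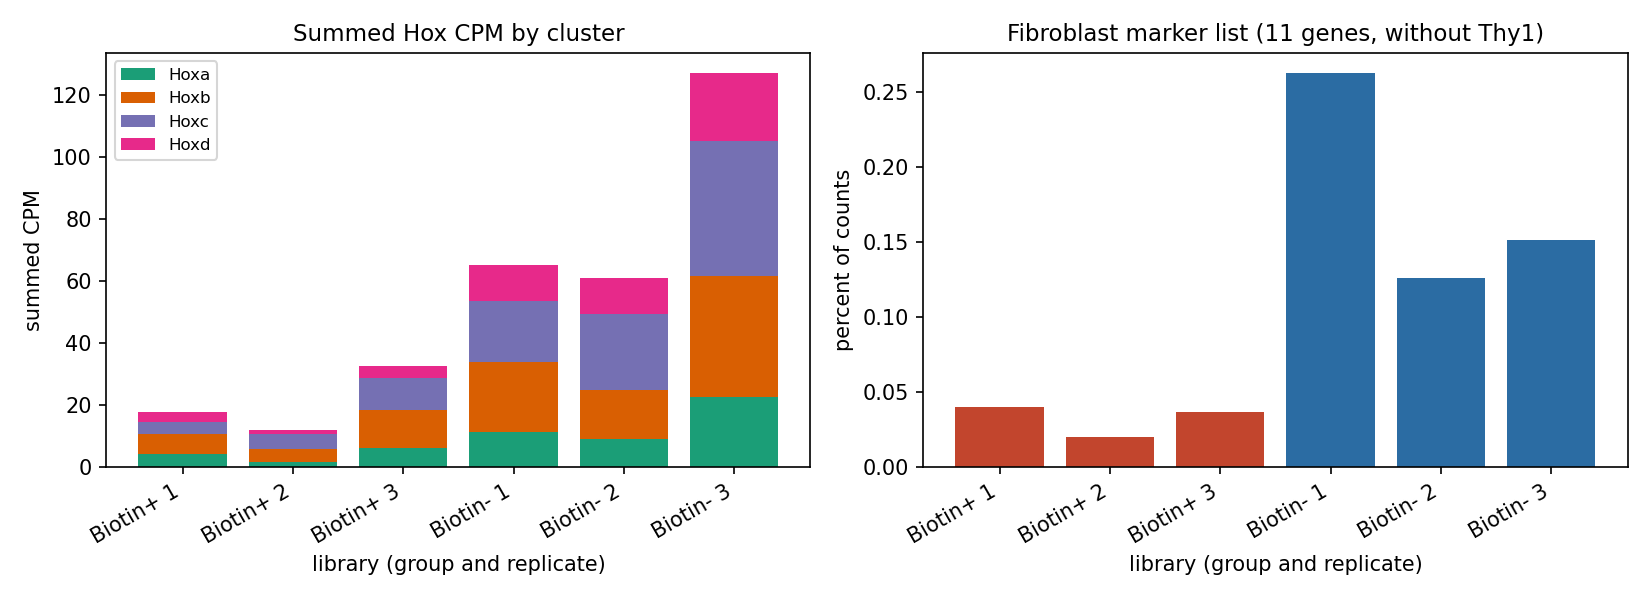
Left, summed CPM of the Hox genes in each library, stacked by cluster; right, the share of counts (in percent) taken by 11 fibroblast markers in the same libraries. The Biotin+ libraries reach 11.8 to 32.4 CPM and the Biotin- libraries 60.9 to 127 CPM, and the marker shares are 0.02% to 0.0398% and 0.126% to 0.263%.

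All 4 clusters were transcribed in both groups. Values that follow are means ± SD of 3 libraries. Hoxa genes summed to 3.84 ± 2.24 CPM in Biotin+ and 14.1 ± 7.25 CPM in Biotin-. Hoxb genes summed to 7.69 ± 4.29 CPM in Biotin+ and 25.9 ± 12.0 CPM in Biotin-. Hoxc genes summed to 6.27 ± 3.32 CPM in Biotin+ and 29.1 ± 12.7 CPM in Biotin-. Hoxd genes summed to 2.79 ± 1.4 CPM in Biotin+ and 15.1 ± 6.05 CPM in Biotin-. For each cluster every Biotin+ library lay below every Biotin- library, and the means were 3.68-fold (a), 3.37-fold (b), 4.64-fold (c) and 5.42-fold (d) lower in Biotin+. Of all Hox counts, the b cluster took 35.4% to 38.5% in Biotin+ libraries and 25.9% to 35.2% in Biotin- libraries, while the shares of the other clusters overlapped between the groups. Without Hoxb4, the b cluster took 23.8% to 30.3% of the remaining Hox counts in Biotin+ and 23.5% to 33.4% in Biotin-, with overlap.

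By paralogue number, genes from 9 to 13 gave the largest mean share of Hox counts in both groups, 44.9 ± 6.78% (SD of 3 libraries) in Biotin+ and 48.2 ± 1.93% in Biotin-. This class also has the most genes, 16 of 39, against 12 numbered 1 to 4 and 11 numbered 5 to 8. In Biotin+ replicate 1, genes from 5 to 8 had more counts, 129 against 124. Genes from 9 to 13 summed to 9.57 ± 6.22 CPM in Biotin+ and 40.3 ± 16.6 CPM in Biotin-, 4.21-fold lower in Biotin+. Genes from 5 to 8 held 29.0 ± 9.15% of Hox counts in Biotin+ and 39.1 ± 3.19% in Biotin-, and their summed level was 5.76-fold lower in Biotin+. Genes from 1 to 4 held 26.1 ± 4.22% in Biotin+ and 12.7 ± 1.33% in Biotin-, and these shares did not overlap. They summed to 3.94, 3.63 and 8.18 CPM in Biotin+ and 9.24, 7.13 and 15.6 CPM in Biotin-. The groups overlapped, though each Biotin+ library was below the Biotin- library of the same number. Without Hoxb4, the most counted of them, genes from 1 to 4 held 14% to 18.1% of the remaining Hox counts in Biotin+ and 8.83% to 11.9% in Biotin-.

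**Figure D2:**
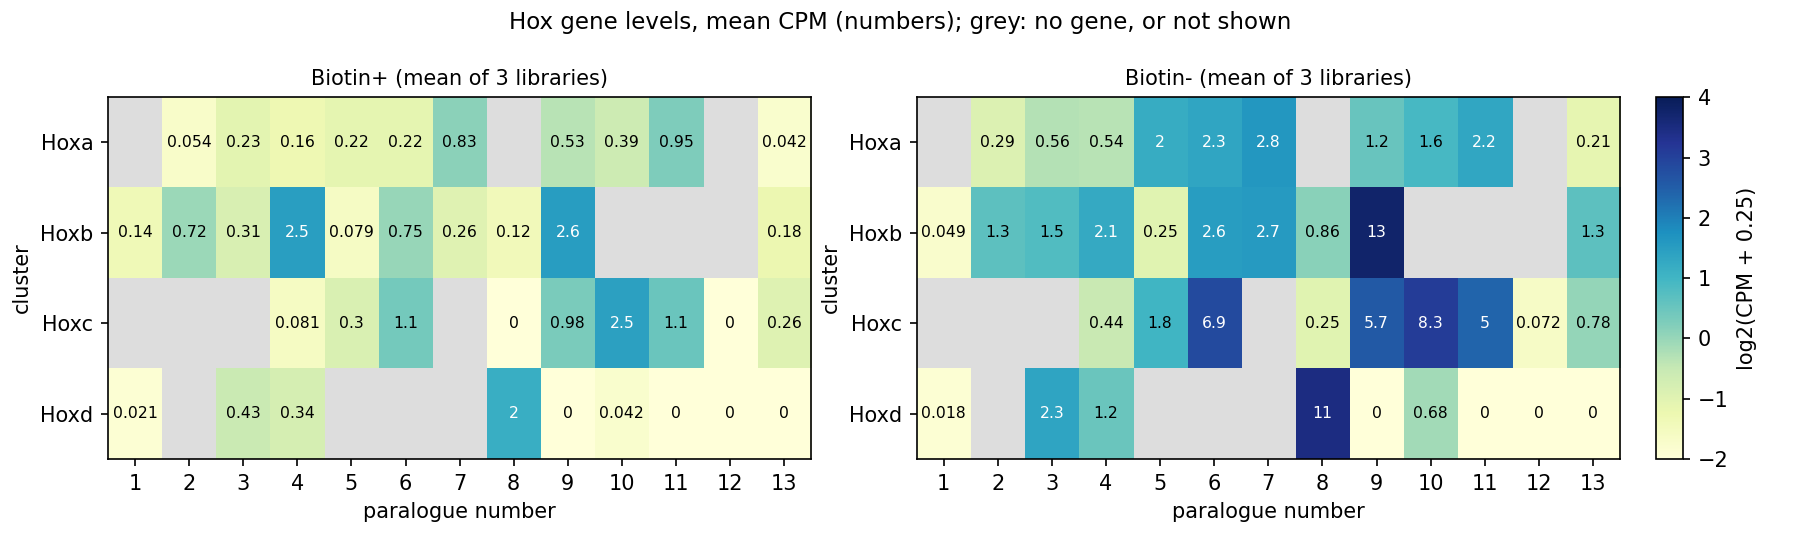
Mean CPM of each Hox gene (number in each cell, colour on a log2(CPM + 0.25) scale) by cluster and paralogue number, Biotin+ left and Biotin- right, 3 libraries each; grey cells have no gene or are not shown. In Biotin- all 4 clusters have counts, from number 1 to number 13 over the family but not above number 10 in Hoxd. The highest means are at Hoxb9 (13.2), Hoxd8 (10.9) and Hoxc10 (8.28), and 4 Hoxd genes are at 0 in both groups.

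The design's comparison asks how tumour-neighbouring T cells differ from distal ones. Of 39 Hox genes, 35 had a count, and 21 passed the filter on low counts and were tested with edgeR's quasi-likelihood F test across 13360 genes. Hoxa6, Hoxb7, Hoxb9, Hoxc6, Hoxc11 and Hoxd8 were lower in Biotin+ at a Benjamini-Hochberg adjusted p below 0.05, 0 were higher and 15 did not pass. Among all tested genes 6.72% were lower and 1.53% higher. Without adjustment, 15 of the tested Hox genes were lower and 0 higher at p below 0.05, against 13.9% and 8.62% of all tested genes. The tested genes were not a neutral choice: 15 of the 21 reached the filter's floor of 0.543 CPM in all Biotin- libraries but not in all Biotin+ libraries. In a fit without the filter, 10 of the 35 genes with a count were lower (6.69% of all genes in that fit) and 32 of the 35 had a negative log2 fold change. CPM ranges lay apart with Biotin+ below for 19 of the 35 genes, against 12.6% of all genes with a count, and with Biotin+ above for 0, against 8.48% of them. With the replicate number as a block, 11 Hox genes were lower and 0 higher (12.0% and 5.60% of all genes), adding Hoxa5, Hoxa7, Hoxc9, Hoxc10 and Hoxd3. DESeq2 called 12 lower and 0 higher (10.4% and 3.53% of all genes). Scaling all libraries to 15 CD8 T cell identity genes gave 14 lower Hox genes, beside 26.6% of all genes. Of those 15 genes, 5 were called higher in Biotin+ and 0 lower, so setting them level lowers the fold changes of all genes. The count was 6 with DESeq2 size factors (6.86% of all genes), 6 with upper quartile scaling (7.28%), 5 with library size alone (6.68%), 6 with a minimum of 1 CPM in 3 libraries (7.18%) and 8 with limma-voom (6.78%).

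Single libraries moved the count. Leaving out Biotin+ replicate 1 left 2 lower Hox genes (4.92% of all genes), leaving out Biotin+ replicate 2 left 1 (2.63%), and leaving out Biotin+ replicate 3 raised them to 10 (7.58%). In the other group, 2 were left when replicate 1 was omitted (3.25% of all genes), 3 when replicate 2 was (6.08%) and 0 when replicate 3 was (1.75%), where 10 of 22 tested were lower at an unadjusted p below 0.05, against 10.4% of all genes. None of the 6 calls was kept in all of these fits. The log2 fold change of each of the 6 stayed at or below -1.84 in all of them.

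Hoxb9, a gene of the thoracic skeleton and its ribs, had the most counts of the family. It had 2.48, 1.0 and 4.30 CPM in Biotin+ and 11.7, 7.68 and 20.3 CPM in Biotin-. Every Biotin+ library was below every Biotin- library (log2 fold change -2.35 ± 0.53 SE, edgeR adjusted p = 0.0243). That p was 4.3e-05 with the replicate block and ranged from 1.28e-07 to 0.12 over all alternatives, and the call was lost on leaving out replicate 1 or 2 of Biotin+ or replicate 3 of Biotin-.

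Hoxd8, a trunk gene, was second in counts and the main product of its cluster. It stood at 2.48, 0.25 and 3.15 CPM in Biotin+, against 8.66, 8.72 and 15.5 CPM in Biotin-. Biotin+ replicate 2 was far below the other libraries, and the groups lay apart (log2 fold change -2.47 ± 0.65 SE, edgeR adjusted p = 0.0429). The call held when Biotin+ replicate 2 or 3 was left out, and was lost when any other library was and with library size as the only scaling.

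Hoxc6, another thoracic gene, had 0.755, 0.625 and 1.76 CPM in Biotin+ and 3.55, 5.48 and 11.6 CPM in Biotin-. The highest Biotin+ library was below the lowest Biotin- library (log2 fold change -2.71 ± 0.59 SE, edgeR adjusted p = 0.0211). Its call was lost without the same libraries as that of Hoxb9. Hoxc11, which acts in the hindlimb and the lumbosacral region, had 0.701, 0.875 and 1.88 CPM in Biotin+ and 3.26, 5.48 and 6.16 CPM in Biotin- (log2 fold change -2.11 ± 0.53 SE, edgeR adjusted p = 0.0346). Here too the groups lay apart, and the call held only without Biotin+ replicate 3 among the fits that left out a library.

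Hoxa6 and Hoxb7, from the middle of their clusters, had the lowest Biotin+ levels of the called genes. Hoxa6 had 3, 1 and 7 counts in Biotin+ and 27, 23 and 79 counts in Biotin- (log2 fold change -3.36 ± 0.87 SE, edgeR adjusted p = 0.0397). Hoxb7 had 5, 7 and 1 counts in Biotin+ and 46, 32 and 75 counts in Biotin- (log2 fold change -3.36 ± 0.77 SE, edgeR adjusted p = 0.0253). With so few reads in Biotin+ the size of either change is poorly fixed, as the SE show. Hoxa6 lost its call without each library except Biotin+ replicate 3 and with limma-voom, and Hoxb7 without replicate 1 or 2 of Biotin+ or replicate 1 or 3 of Biotin-. According to GENCODE M21, no exon base of any of the 6 called genes is overlapped by another gene.

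**Figure D3:**
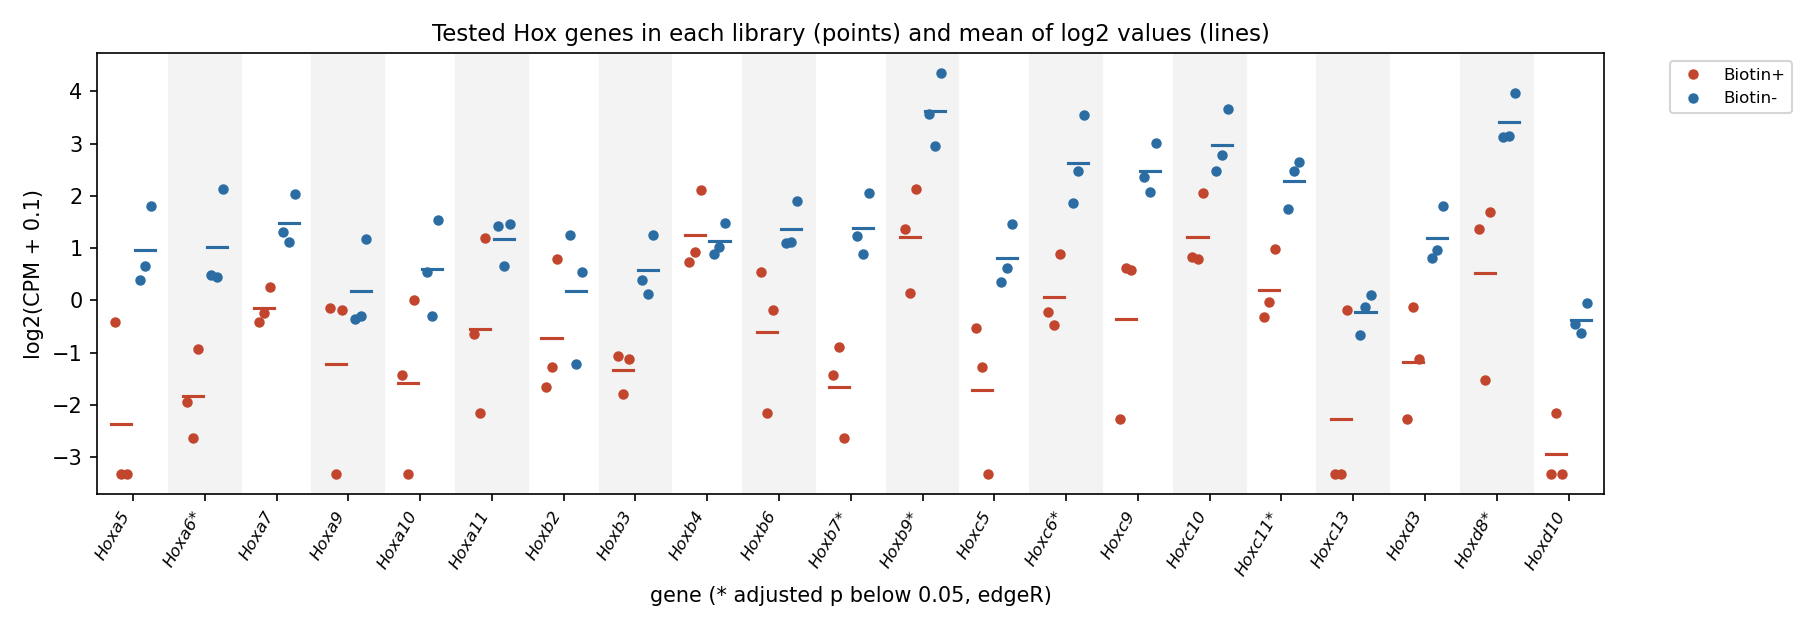
Level of each tested Hox gene in each library as log2(CPM + 0.1), Biotin+ left of Biotin- for each gene; lines are means of the 3 log2 values and * marks an adjusted p below 0.05. Biotin+ points lie below all Biotin- points for 15 of the 21 genes (15.9% of all tested genes), and Hoxb4, at 1.56 to 4.24 CPM in Biotin+ and 1.75 to 2.7 CPM in Biotin-, is among the 6 with overlap.

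Hoxb4 differed from this picture. It encodes a factor known for the self-renewal of blood stem cells. It had 29, 29 and 70 counts in Biotin+ and 36, 35 and 50 counts in Biotin-, or 1.56, 1.81 and 4.24 CPM against 1.75, 1.92 and 2.7 CPM. The groups overlapped, and it did not pass (log2 fold change 0.26 ± 0.54 SE, edgeR adjusted p = 0.828). This was the only positive fold change among the tested Hox genes, and it became -0.33 without Biotin+ replicate 3 and -0.50 with the identity scaling (adjusted p 0.506 to 0.963 over all alternatives). Hoxb4 held 8.9% to 15.3% of Hox counts in Biotin+ libraries and 2.13% to 3.15% in Biotin- libraries. Per 1000 counts of the CD8 T cell list, Hoxb4 had 0.178, 0.16 and 0.491 counts in Biotin+ and 0.343, 0.289 and 0.594 in Biotin-. These groups overlapped, though each Biotin+ value was below that of the same number. Per 1000 counts of the 11 fibroblast markers, it had 3.85, 7.4 and 11.6 counts in Biotin+ and 0.72, 1.56 and 2.01 in Biotin-, without overlap. These markers were themselves 5.6-fold lower in Biotin+ by mean share, so any gene at a level count would give a higher ratio there. The same holds for the share of Hox counts, and neither value speaks of the source of Hoxb4. Whether Hoxb4 differs from the other Hox genes in its response was not tested.

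Levels of different genes are compared per kilobase of exon (GENCODE M21). In Biotin- the highest were Hoxb9 at 5.13, Hoxc10 at 4.34, Hoxd8 at 3.97, Hoxc6 at 2.85 and Hoxa6 at 2.61 CPM per kb. In Biotin+ the highest were Hoxc10 at 1.28, Hoxb9 at 1.0, Hoxb4 at 0.99, Hoxd8 at 0.714 and Hoxc11 at 0.569 CPM per kb. Hoxb4 thus stood at rank 3 in Biotin+ and at rank 13 in Biotin-. Neighbours among these 5 differed, in either order, by less than the SD between libraries of either gene.

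Of the genes numbered 9 and 10, Hoxc10, which helps to pattern lumbar motor neurons and vertebrae, had 1.67, 1.63 and 4.06 CPM in Biotin+ and 5.45, 6.75 and 12.6 CPM in Biotin-. The groups lay apart, but the adjusted p was 0.053 in edgeR and 0.00132 with the replicate block (log2 fold change -1.75 ± 0.49 SE). Hoxc9, a thoracic gene, had 0.108, 1.44 and 1.39 CPM in Biotin+ and 5.06, 4.11 and 8.0 CPM in Biotin- (edgeR adjusted p = 0.0529, and 0.00289 with the block). Over the alternatives the adjusted p ranged from 0.00112 to 0.266 for Hoxc10 and from 8.78e-05 to 0.213 for Hoxc9. Hoxa9 and Hoxa10, both studied in blood formation and leukaemia, had overlapping groups. Hoxa9 had 15, 0 and 13 counts in Biotin+ and 14, 13 and 40 in Biotin-, and Hoxa10 had 5, 0 and 15 counts in Biotin+ and 28, 13 and 52 in Biotin-. Neither passed in edgeR (adjusted p = 0.55 and 0.272). Hoxd10, a gene of limb patterning, had 0, 2 and 0 counts in Biotin+ and 13, 10 and 16 in Biotin-. Its groups lay apart, and it did not pass in edgeR (adjusted p = 0.0702).

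The most posterior genes were present at low counts. Hoxa11, needed in the limb and the reproductive tract, had 10, 2 and 36 counts in Biotin+ and 53, 27 and 49 in Biotin-, with overlap, and 35% of its exon bases are overlapped by other genes, mainly its antisense gene Hoxa11os. Hoxb13, known from prostate and distal colon, had 2, 0 and 7 counts in Biotin+ and 25, 9 and 43 in Biotin-, which lay apart but fell below the filter. Hoxa13, a gene of the hindgut and the distal limb, had 0, 2 and 0 counts in Biotin+ and 4, 3 and 5 in Biotin-. Hoxc13, known for its role in hair and nails, had 0, 0 and 13 counts in Biotin+ and 11, 15 and 18 in Biotin- (edgeR adjusted p = 0.492). All 13 counts of Hoxc13 in Biotin+ came from replicate 3, and without that library the gene was called lower (edgeR adjusted p = 0.031). Hoxc12 had 4 counts in Biotin- replicate 3 and none elsewhere.

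The Hoxd cluster had gaps. Hoxd9, Hoxd11, Hoxd12 and Hoxd13 had no count in any of the 6 libraries, next to 725 counts for Hoxd8 and 41 for Hoxd10. A count of 0 in a library allows up to 0.153 to 0.183 CPM of its total count, for counting error only. In GENCODE M21 no exon base of Hoxd9, Hoxd12 or Hoxd13 is overlapped by another gene, while 10.8% of those of Hoxd11 are. The sources used here do not give the annotation behind the deposited counts, and whether reads over these genes were set aside was not tested.

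Of the genes numbered 5 to 7 that did not pass in edgeR, Hoxa5, needed for lung development, had 12, 0 and 0 counts in Biotin+ and 25, 27 and 63 in Biotin- (adjusted p = 0.131, and 0.039 with the block). Hoxa7, a trunk gene, had 12, 12 and 18 counts in Biotin+ and 49, 38 and 74 in Biotin- (adjusted p = 0.084, and 0.0466 with the block), and 20.4% of its exon bases are overlapped by other genes. Hoxb6 had 25, 2 and 13 counts in Biotin+ and 42, 38 and 67 in Biotin-. Hoxc5 had 11, 5 and 0 counts in Biotin+ and 24, 26 and 49 in Biotin-. All 4 genes had groups that lay apart. Over the alternatives the adjusted p ranged from 0.00627 to 0.418 for Hoxa5 and from 0.0192 to 0.363 for Hoxa7. Hoxb5, Hoxb8 and Hoxc8 fell below the filter. Hoxb5 had 1, 0 and 3 counts in Biotin+ and 2, 2 and 10 in Biotin-. Hoxb8, a gene of myeloid progenitors and the spinal cord, had 0, 5 and 1 counts in Biotin+ and 3, 8 and 37 in Biotin-. Hoxc8 had no count in Biotin+ and 3, 0 and 11 counts in Biotin-.

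Among anterior genes, which pattern the hindbrain and neck, Hoxb3 had 7, 3 and 6 counts in Biotin+ and 25, 18 and 42 in Biotin- (edgeR adjusted p = 0.0877), and Hoxd3 had 2, 13 and 6 counts in Biotin+ and 34, 34 and 63 in Biotin- (edgeR adjusted p = 0.0841, and 0.0283 with the block). Both had groups that lay apart, and both are uncertain, since other genes overlap 52.9% of the exon bases of Hoxb3 and 62.8% of those of Hoxd3. For Hoxd3 the adjusted p ranged from 0.0182 to 0.329 over the alternatives. Hoxb2 had 4, 5 and 27 counts in Biotin+ and 47, 6 and 25 in Biotin-, with overlap (edgeR adjusted p = 0.627). The anterior genes below the filter were few in reads. Hoxd4 had 10, 0 and 8 counts in Biotin+ and 14, 8 and 44 in Biotin-, and other genes overlap 52.3% of its exon bases. Hoxa3 had 5, 1 and 6 counts in Biotin+ and 9, 8 and 15 in Biotin-, with groups apart. Hoxa4 had 3, 5 and 0 counts in Biotin+ and 11, 4 and 16 in Biotin-. Hoxc4 had 0, 1 and 3 counts in Biotin+ and 5, 8 and 12 in Biotin-, with groups apart. Hoxa2 had 3, 0 and 0 counts in Biotin+ and 2, 5 and 9 in Biotin-. Hoxb1 had 0, 0 and 7 counts in Biotin+ and 3, 0 and 0 in Biotin-, and Hoxd1 had 1 count in Biotin+ and 1 in Biotin-. Hoxb1, Hoxd1 and Hoxb4 were the 3 Hox genes with a higher mean CPM in Biotin+.

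**Figure D4:**
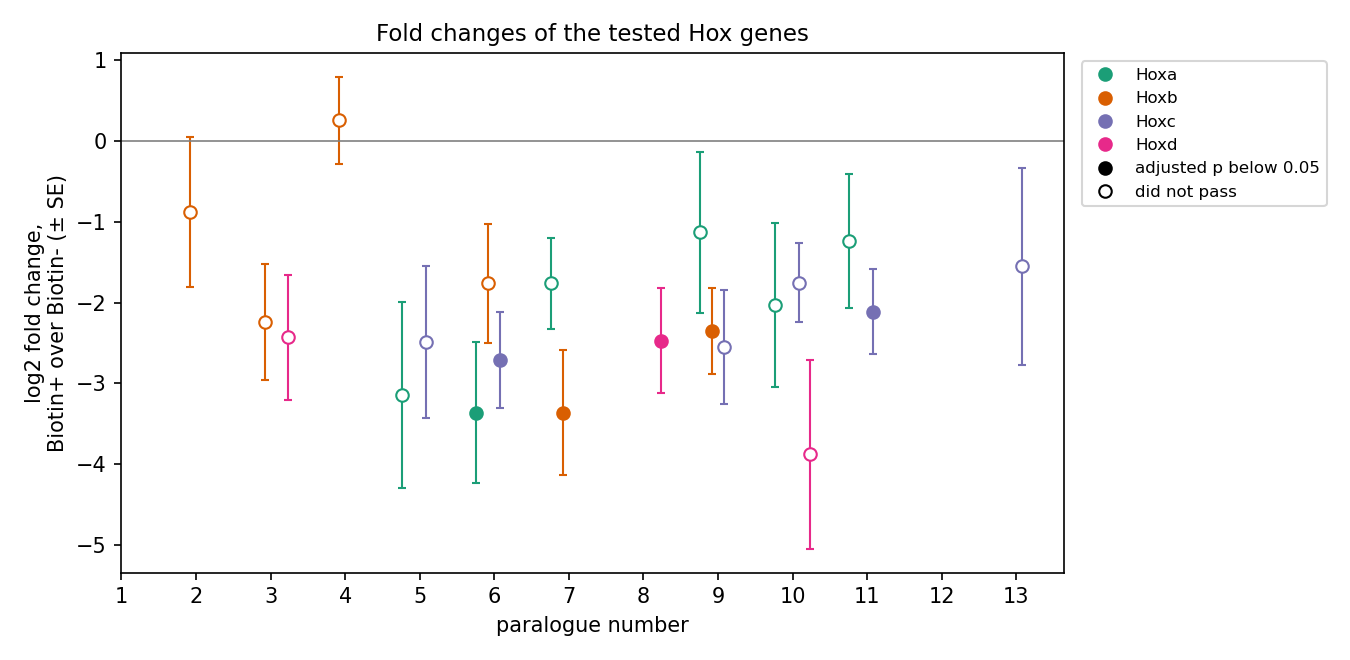
Log2 fold change, Biotin+ over Biotin-, of the tested Hox genes (± SE) against paralogue number, coloured by cluster; filled points have an adjusted p below 0.05. Points lie between -1.13 and -3.88 from number 5 upwards, and Hoxb4 is above 0 at 0.26.

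Promoter windows are shown for genes that stand for the different patterns: Hoxa6 and Hoxd8, called lower; Hoxd9, the neighbour of Hoxd8 with no count; and Hoxb4, with overlapping groups. Each runs from 250 bases before to 50 bases after the RefSeq start, 5′ to 3′ on the gene's strand (GRCm38.p6, another build than that of the counts). Capitals mark the GC box GGGCGG, the CCAAT box and the Hox-Pbx type site TGATNNAT, searched on both strands, with GC boxes allowed to overlap each other.
Hoxa6, chr6:52208623-52208922, minus strand: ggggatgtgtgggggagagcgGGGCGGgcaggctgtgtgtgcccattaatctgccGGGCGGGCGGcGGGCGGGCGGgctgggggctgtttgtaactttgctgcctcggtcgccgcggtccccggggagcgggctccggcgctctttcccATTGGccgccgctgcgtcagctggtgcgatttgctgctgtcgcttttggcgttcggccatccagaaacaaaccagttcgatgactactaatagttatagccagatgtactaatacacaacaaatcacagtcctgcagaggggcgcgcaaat
Hoxd8, chr2:74704365-74704664, plus strand: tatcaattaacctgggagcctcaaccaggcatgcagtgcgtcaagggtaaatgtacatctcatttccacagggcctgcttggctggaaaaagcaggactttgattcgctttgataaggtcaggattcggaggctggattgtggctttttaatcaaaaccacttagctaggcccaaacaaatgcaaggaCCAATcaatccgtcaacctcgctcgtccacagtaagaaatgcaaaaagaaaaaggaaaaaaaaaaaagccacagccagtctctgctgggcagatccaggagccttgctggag
Hoxd9, chr2:74697513-74697812, plus strand: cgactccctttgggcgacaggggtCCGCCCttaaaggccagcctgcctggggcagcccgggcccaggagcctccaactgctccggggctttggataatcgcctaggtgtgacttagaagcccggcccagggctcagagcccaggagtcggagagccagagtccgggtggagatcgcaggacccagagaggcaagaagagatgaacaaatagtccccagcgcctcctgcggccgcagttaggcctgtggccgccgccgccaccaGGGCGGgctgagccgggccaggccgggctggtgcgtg
Hoxb4, chr11:96318017-96318316, plus strand: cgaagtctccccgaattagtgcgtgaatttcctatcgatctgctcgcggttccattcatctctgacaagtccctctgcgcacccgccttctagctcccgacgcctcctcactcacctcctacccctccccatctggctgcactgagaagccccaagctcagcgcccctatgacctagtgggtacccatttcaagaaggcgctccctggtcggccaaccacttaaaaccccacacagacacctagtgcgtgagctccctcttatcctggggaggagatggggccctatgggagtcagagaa
The Hoxa6 window held 5 GC box matches and 1 CCAAT box, that of Hoxd8 1 CCAAT box, that of Hoxd9 2 GC boxes, and that of Hoxb4 held none of the 3 motifs. Windows were given for 22 of the 39 Hox genes (24 windows), which held a median of 14.5 CpG dinucleotides against 7 in all 32851 windows of the table. Of the Hox windows 41.7% held a GC box, 62.5% a CCAAT box and 16.7% a Hox-Pbx type site, against 35.7%, 37.4% and 8.85% of all windows. These are matches of letters and no measure of binding.

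Partners, regulators and other positional genes were taken as lists. Hox proteins bind DNA together with TALE homeodomain partners. Of 11 TALE genes, all tested, 2 were lower in Biotin+ (Meis2 is described here), 0 were higher and the other 9 missed the threshold. The list's median was -0.26 on the log2 scale, against 0.061 over all tested genes. Meis2, a limb and heart factor, had 0.701, 0.25 and 1.03 CPM in Biotin+ and 4.67, 3.95 and 6.87 CPM in Biotin- (log2 fold change -2.95 ± 0.57 SE, edgeR adjusted p = 0.014). Its call was lost when Biotin- replicate 3 was left out (edgeR adjusted p = 0.0776). Meis1, the partner of Hoxa9 in leukaemia, had 7, 0 and 5 counts in Biotin+ and 43, 13 and 60 in Biotin- (edgeR adjusted p = 0.0804, and 0.0141 with the block), with 0.00705 to 0.319 over the alternatives. Pbx3 had overlapping groups, at 6.26, 6.25 and 11.7 CPM in Biotin+ and 5.35, 5.54 and 8.32 CPM in Biotin- (log2 fold change 0.34 ± 0.37 SE, which turned to -0.03 without Biotin+ replicate 3 and to -0.43 with the identity scaling). With the block 4 TALE genes were lower, and the shares of all genes called lower were 6.72% in edgeR and 12.0% with the block.

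Polycomb proteins keep Hox clusters silent and trithorax and MLL proteins keep them active. Of 21 Polycomb genes, all tested, 0 passed in edgeR, in DESeq2 or with the block, 5 were lower with the identity scaling (26.6% of all genes), and 2 were lower and 0 higher at an unadjusted p below 0.05 (median log2 fold change 0.12). Ezh2, the H3K27 methyltransferase, had 54.6, 83.8 and 58.4 CPM in Biotin+ and 39.1, 65.3 and 38.2 CPM in Biotin-, with overlap (log2 fold change 0.46 ± 0.27 SE, and -0.28 with the identity scaling). Of 14 trithorax and MLL genes, all tested, 0 passed in edgeR, in DESeq2 or with the block, 4 were lower with the identity scaling and 0 had an unadjusted p below 0.05 in edgeR (median -0.02). Kmt2a, the MLL methyltransferase, had 85.1, 37.9 and 89.0 CPM in Biotin+ and 69.9, 89.7 and 59.9 CPM in Biotin- (log2 fold change -0.05 ± 0.31 SE, which turned to 0.23 without Biotin+ replicate 2 and to 0.05 without Biotin- replicate 2).

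Non-coding genes of the clusters had few reads. Of 19 such genes measured, 9 had no count and 3 were tested, of which 0 passed in edgeR, in DESeq2 or with the block, and 1 was lower and 0 higher at an unadjusted p below 0.05. Hotair, which lies in the Hoxc cluster, had 3, 0 and 18 counts in Biotin+ and 23, 7 and 18 in Biotin-. Hotairm1, of the Hoxa cluster, had 14, 3 and 19 counts in Biotin+ and 25, 33 and 91 in Biotin-, with groups apart (edgeR adjusted p = 0.174). The microRNA genes of the clusters were listed at 0, in libraries made from poly-A RNA.

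Of 32 other positional genes, 12 had no count and 14 were tested. Twist1, Twist2, Shox2 and Prrx1 were lower in Biotin+, 0 were higher and 10 missed the threshold, and with the block 12 were lower, against 6.72% of all genes in edgeR and 12.0% with the block. The median log2 fold change was -2.32 over genes that passed the filter. As with the Hox genes, this was not a neutral choice. Emx2, for example, passed with 0, 0 and 6 counts in Biotin+ and 45, 19 and 28 in Biotin-. In the fit without the filter, 12 genes of the list were lower and 0 higher (6.69% of all genes in that fit were lower). Prrx1, a factor of limb and connective tissue mesenchyme, had 11.8, 3.25 and 18.2 CPM in Biotin+ and 50.9, 37.2 and 76.1 CPM in Biotin- (log2 fold change -2.30 ± 0.51 SE, edgeR adjusted p = 0.0241). Twist1, a mesenchymal basic helix-loop-helix factor, had 3.94, 2.44 and 6.72 CPM in Biotin+ and 22.2, 18.3 and 33.5 CPM in Biotin- (log2 fold change -2.50 ± 0.40 SE, edgeR adjusted p = 0.0077). It passed without each library in turn, whereas Twist2 (log2 fold change -2.14 ± 0.38 SE, edgeR adjusted p = 0.00956) failed without Biotin- replicate 3, and Prrx1 without that library or Biotin+ replicate 1. Shox2, which shapes the proximal limb, had 0.485, 0.75 and 2.48 CPM in Biotin+ and 5.45, 8.17 and 9.46 CPM in Biotin- (log2 fold change -2.63 ± 0.59 SE, edgeR adjusted p = 0.0236), and failed on omitting replicate 2 of either group or replicate 3 of Biotin-. All 4 genes had groups that lay apart, in libraries where the fibroblast markers took 0.0322% of counts in Biotin+ and 0.18% in Biotin-.

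The limb and gut markers of position that were fixed by name differed in whether they were seen at all. Tbx5 and Tbx4, which mark the forelimb and the hindlimb, had no count in any library, nor did Cdx1 and Cdx2, the intestinal factors that act upstream of Hox genes. Pitx1, which specifies the hindlimb, had 26, 9 and 43 counts in Biotin+ and 150, 54 and 182 in Biotin-, with groups apart (log2 fold change -2.13 ± 0.61 SE, edgeR adjusted p = 0.0583, and 0.000809 with the block). Tbx15, a factor of trunk skin and skeleton, had 28, 0 and 22 counts in Biotin+ and 103, 85 and 100 in Biotin- (edgeR adjusted p = 0.113, and 0.00971 with the block). En1, known from ventral limb skin and dermal fibroblasts of the back, had 29, 5 and 0 counts in Biotin+ and 62, 39 and 120 in Biotin- (edgeR adjusted p = 0.142, and 0.0279 with the block). Over the alternatives the adjusted p ranged from 0.000335 to 0.248 for Pitx1, from 0.000596 to 0.28 for Tbx15 and from 0.00113 to 0.454 for En1.

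**Figure D5:**
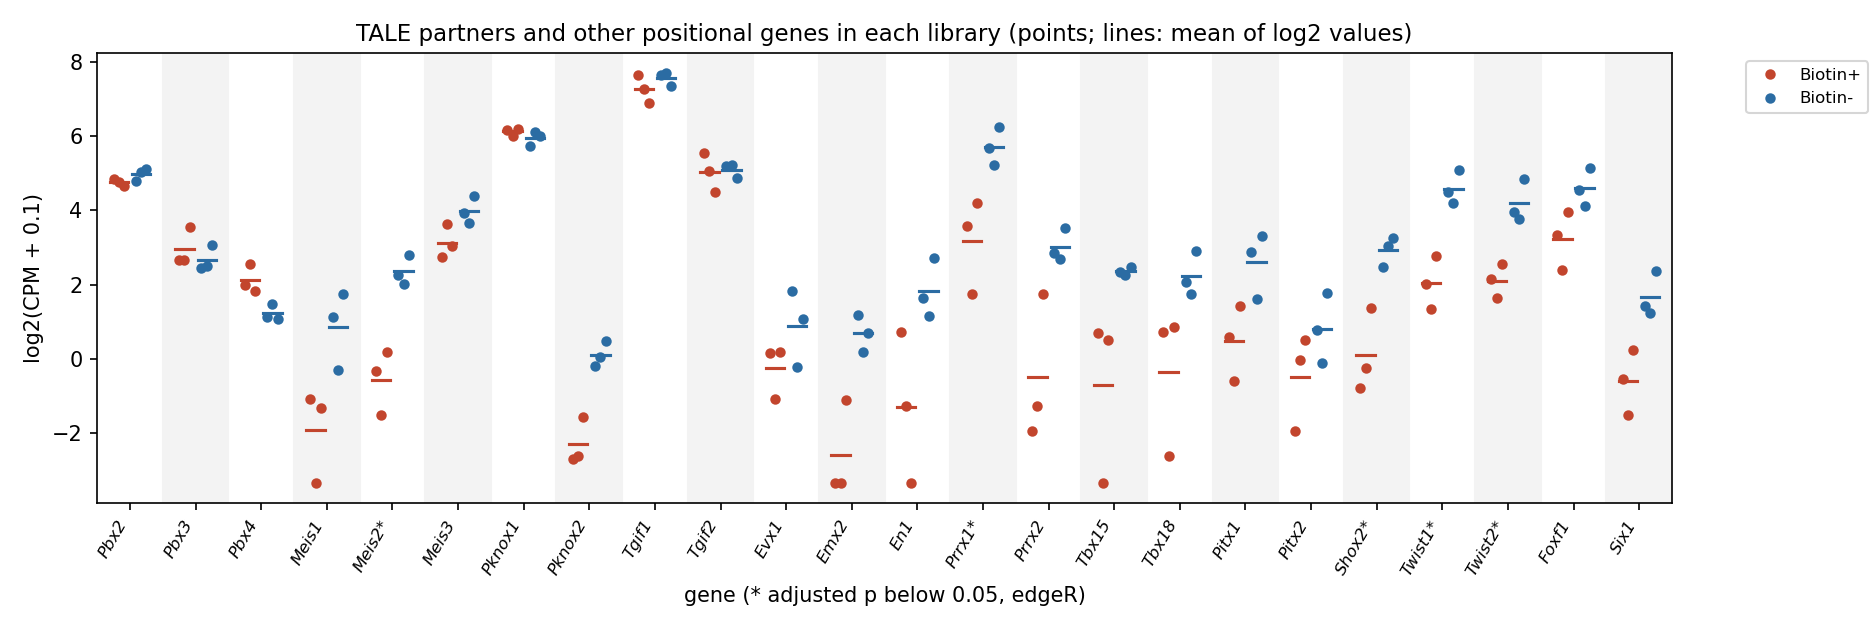
Level of tested TALE partners and other positional genes in each library as log2(CPM + 0.1), Biotin+ left of Biotin- for each gene; lines are means of the 3 log2 values and * marks an adjusted p below 0.05. Meis2, Prrx1, Shox2, Twist1 and Twist2 are marked, each with all Biotin+ points below all Biotin- points.

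Retinoic acid induces anterior Hox genes. Of 15 retinoid genes 10 were tested, of which Crabp1, Crabp2 and Rarg were lower in Biotin+, 0 were higher and 7 missed the threshold (median log2 fold change -1.08), and with the block 6 were lower. Among all tested genes 6.72% were lower in edgeR and 12.0% with the block. Crabp1, which binds retinoic acid in the cytoplasm, had 15.3, 21.8 and 26.1 CPM in Biotin+ and 61.0, 74.6 and 116 CPM in Biotin- (log2 fold change -1.99 ± 0.29 SE, edgeR adjusted p = 0.00657) and passed without each library in turn. Crabp2, its relative that carries retinoic acid to the nucleus, had 3.13, 5.25 and 6.84 CPM in Biotin+ and 12.3, 13.1 and 19.2 CPM in Biotin- (log2 fold change -1.55 ± 0.35 SE, edgeR adjusted p = 0.0252). Rarg, a retinoic acid receptor, had 28.5, 19.4 and 43.5 CPM in Biotin+ and 68.8, 56.9 and 128 CPM in Biotin- (log2 fold change -1.47 ± 0.36 SE, edgeR adjusted p = 0.0311). All 3 had groups that lay apart. Crabp2 failed on omitting replicate 1 of either group, replicate 2 of Biotin+ or replicate 3 of Biotin-, with adjusted p-values up to 0.128. Rarg failed on omitting replicate 1 or 2 of Biotin+ or replicate 3 of Biotin-, with values up to 0.14.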

How the data were processed

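Poly-A RNA of sorted CD8 T cells was sequenced from 6 libraries, 3 Biotin+ and 3 Biotin-, grouped and numbered by their titles. The authors deposited whole-number raw counts, 1 column per library and 1 line per gene symbol. The submitters' processing notes name Trim Galore 0.6.7, STAR 2.7.10a, Picard 1.14, featureCounts 2.0.1 and GRCm39, without their roles. No source used here gives the annotation, the strand setting or how a read over several genes was counted, so reads of a gene and of its antisense or overlapping neighbour cannot be separated. No molecular identifiers are named, so reads may share a molecule and count limits cover counting error only. Totals per library were 16423106 to 19640693 counts, and no pair of replicates looked like 1 library deposited again (chi-square over genes, per degree of freedom, 35.6 to 103).

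Groups were compared in edgeR 4.0.16 under R 4.3.3 by the quasi-likelihood F test with group as the only term, after filterByExpr and TMM scaling, with robust dispersions, Benjamini-Hochberg adjusted over 13360 genes, threshold 0.05. Log2 fold changes are Biotin+ minus Biotin-, and SE is the log2 fold change over the root of F. The fit was tested on simulated data, where it called 15.3% of 98 genes changed 2-fold and 89.9% of 99 genes changed 4-fold, with 5 false calls. Most 2-fold changes were thus missed, and a gene that did not pass may still differ by that much or more. The simulation gave every gene the same dispersion, so its 4-fold figure need not hold for Hox genes with few counts. Hoxd10 (log2 fold change -3.88 ± 1.17 SE) and Hoxa5 (-3.14 ± 1.15 SE), for example, did not pass. The members, lists and alternatives were chosen with earlier results of these data known. Named genes are every Hox gene with at least 10 counts in all, with 6 values each, the others by their counts, up to 4 called members of each list by smallest p, and 16 genes fixed by name. Alternatives were other scalings (including one to 15 CD8 T cell identity genes), filters, DESeq2 1.42.0, limma-voom (limma 3.58.1), the replicate block and leaving out each library. Same-numbered libraries of the groups deviated together (correlations of log2 CPM deviations 0.366, 0.263 and 0.393, against -0.276 to -0.0721 between numbers). Deviations from a mean of 3 libraries sum to 0, so positive values within numbers push those between numbers below 0. The titles number the replicates without naming a pairing. The numbers are therefore taken as a possible pairing of the samples. Whether groups overlapped or lay apart was judged over all libraries, without regard to this pairing. The reported calls still come from the fit without the block, and blocked values stand beside them where they change a call. Exon lengths and overlaps are from GENCODE M21 and promoter windows from RefSeq (GRCm38.p6), matched by symbol. Haglros was not analysed here, and 2 genes that the naming rule covers are not reported here by name, though counts and sums include them.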

Additional observations from a re-analysis of the deposited data

How the results depend on the processing

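The 6 Hox genes called lower became 14 with the identity scaling, which shifted the all-gene median by -0.747 on the log2 scale, 10 with no filter, 12 with DESeq2 and 11 with the replicate block, and they numbered 0 to 10 when a library was left out. The 9 related genes called lower became 36, 21, 21 and 22 under the same 4 settings, and 2 to 16 when a library was left out. The share of all genes called lower moved as well. It was 6.72% in the main fit, 26.6%, 6.69%, 10.4% and 12.0% under the 4 settings, and 1.75% to 7.58% when a library was left out. The other scalings, the other filter and limma-voom gave 5 to 8 Hox genes (6.68% to 7.28% of all genes). The log2 ratio of summed Hox CPM, -2.03, became -2.80 with the identity scaling, and lay between -2.52 and -1.61 when a library was left out. Directions turned only for genes that had not passed: Hoxb4 (-0.50), Pbx3 (-0.43) and Ezh2 (-0.28) with the identity scaling, and with a library left out Hoxb4 (-0.33 to 0.51), Pbx3 (-0.03 to 0.57) and Kmt2a (-0.25 to 0.23). The replicate block lost no Hox call. The cause of these moves was not tested, except that a left-out library leaves fewer samples. The identity scaling also lowers all fold changes, as its genes took a larger share of counts in Biotin+. Depth limits the family: 14 Hox genes with counts were too low to test.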
